A study of Homo sapiens with 4 samples.

Results

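Genes that the tumour suppressor p53 switches on were read on 4 arrays of modified colorectal cancer cells. The set was named gene by gene and holds 10 genes: MDM2, TP53I3, FAS, BBC3, BAX, GDF15, RRM2B, SESN1, FDXR and TNFRSF10B. It was chosen with earlier results of these arrays known, but by no threshold on their values. Every probe set annotated to 1 of these symbols and to no other gene was taken, which gave 27 probe sets for 8 of the 10 genes, out of 41097 probe sets for 19775 genes on the array. The probe set that carries the symbol BBC3 lists other genes as well, so no level is given for BBC3. In the annotation used here no probe set is listed for FDXR, so it has no level either. The arrays were labelled LS174T-siCDX1, LS174T-siVec, HCT116-CDX1 and HCT116-Vec, with 1 array each. LS174T and HCT116 are human colon carcinoma lines, both known for functional p53. From the names, CDX1, an intestinal homeobox factor, was lowered in LS174T-siCDX1 and introduced in HCT116-CDX1, each beside its own vector control. How the cells were modified, whether they were clones and how they were grown is not given in the sources used here.

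p53 is a transcription factor that is held at a low level in unstressed cells and accumulates after DNA damage and other stress. It binds a response element made of 2 copies of a 10-base motif and activates genes that stop the cell cycle, repair DNA, adjust metabolism or start apoptosis. MDM2 encodes the ubiquitin ligase that marks p53 for destruction, so that p53 induces its own inhibitor. BAX and BBC3 (PUMA) belong to the BCL2 family and act at the mitochondrion, while FAS and TNFRSF10B (the TRAIL receptor DR5) are death receptors of the cell surface. GDF15 is a secreted stress cytokine, TP53I3 an oxidoreductase linked to oxidative stress, SESN1 a sestrin that restrains mTORC1, RRM2B the p53-inducible subunit of ribonucleotide reductase, which makes the building blocks for DNA repair, and FDXR a mitochondrial ferredoxin reductase.

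Values were RMA levels on the log2 scale, so that a difference of 1 is 2-fold. A gene with several probe sets was read from the brightest one on average, and the others are given beside it. "Fell" and "rose" are used where 2 arrays differed at least 2-fold and the brighter one stood at 6 or more. With 1 array per group there is no spread between replicates, no test and no p-value, and it is this single array that limits how precisely any difference is known. Part of the technical scatter was gauged from 18 spike-in probe sets. Their largest difference in size was 0.170 within the LS174T pair, 0.349 within the HCT116 pair and 0.356 between the vector arrays. Spike-ins carry no scatter of culture or RNA extraction, so a difference beyond theirs may still be scatter. The array medians lay between 7.04 and 7.06. All 7 markers of colorectal epithelium were measured on all arrays, EPCAM among them at 12.82 to 13.24. Markers of other cell types passed 6 as well, such as COL1A1 at 8.86 to 9.14 and CD3E at 7.76 to 8.07. The epithelial marker VIL1 read 7.04 in HCT116-Vec, so a level above 6 does not by itself mark a cell type. The probe set of CDX1 read 9.06 in LS174T-siCDX1 and 10.46 in LS174T-siVec, but 8.24 on the array labelled HCT116-CDX1 and 8.21 in HCT116-Vec. The CDX1 probe set thus gave no sign of the label in HCT116. KRT20, the keratin gene the series asks about, read 5.45 in LS174T-siCDX1 and 8.15 in LS174T-siVec, and 9.38 on the array labelled HCT116-CDX1 and 6.36 in HCT116-Vec. It was thus higher where CDX1 was higher by label in both lines. Directions in the HCT116 pair are given by the label.

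Promoter windows of 300 bases, 250 before and 50 from the RefSeq start site on (build GRCh38.p14), were in the sequence table for 8 of the 10 genes, in 16 windows. They were searched for the p53 response element as 20 contiguous bases, a motif that reads the same on both strands, and the best match was kept. At most 2 mismatches were found in the windows of FAS and MDM2, as in 0.820% of all 27305 genes of the table (0.649% of its 35116 windows). At most 3 were found in those of SESN1, GDF15 and FDXR as well, as in 6.39% of all genes (5.20% of windows). A match is a description of letters and does not by itself show binding. The 4 matches of genes with a reading are shown because they come closest to the p53 consensus in the windows of this set, with the 4 central bases of each 10-base copy in capitals.
MDM2: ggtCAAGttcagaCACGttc
FAS: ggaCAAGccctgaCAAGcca
SESN1: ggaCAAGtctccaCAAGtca
GDF15: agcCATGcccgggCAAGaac
The match lay at chr12:68808923-68808942 for MDM2 and at chr10:88991309-88991328 for FAS, both on the plus strand. It lay at chr6:109009018-109009037 on the minus strand for SESN1 and at chr19:18386186-18386205 on the plus strand for GDF15, where it starts at base 29 of the transcript.

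The whole windows of the 2 closest matches, FAS and MDM2, are shown with the match in capitals. The MDM2 window (chr12:68808767-68809066, plus strand) belongs to 1 of 4 RefSeq starts of that gene, and the match begins 94 bases before the start site. The same match begins 101 bases before a neighbouring start. The best matches in the windows of the remaining MDM2 starts had 5 mismatches.
MDM2: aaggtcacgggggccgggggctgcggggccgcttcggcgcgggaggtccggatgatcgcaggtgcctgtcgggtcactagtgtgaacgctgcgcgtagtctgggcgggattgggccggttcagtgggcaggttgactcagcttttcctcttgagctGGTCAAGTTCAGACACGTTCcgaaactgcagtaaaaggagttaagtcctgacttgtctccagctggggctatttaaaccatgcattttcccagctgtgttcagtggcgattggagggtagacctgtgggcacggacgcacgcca
The FAS window (chr10:88991181-88991480, plus strand) belongs to 1 of 3 RefSeq starts, and the match begins 122 bases before it. The best matches in the other FAS windows had 5 mismatches.
FAS: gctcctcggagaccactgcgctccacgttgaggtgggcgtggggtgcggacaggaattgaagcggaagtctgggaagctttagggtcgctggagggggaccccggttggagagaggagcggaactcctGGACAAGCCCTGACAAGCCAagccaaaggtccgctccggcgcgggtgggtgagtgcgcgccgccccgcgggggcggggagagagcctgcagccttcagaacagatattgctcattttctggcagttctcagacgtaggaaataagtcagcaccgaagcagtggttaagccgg
The windows of TP53I3 and BAX held no match with 3 or fewer mismatches, which says only that those letters were not in these 300 bases. The 4 genes with a match and a reading are taken up below with the others. MDM2, FAS and SESN1 were lower in both modified lines, and GDF15 in 1 of them. TP53I3 and BAX, without a match, were lower in both as well, so the direction did not separate genes by match.

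MDM2, the feedback inhibitor of p53, was slightly lower in both modified lines. It read 10.22 in LS174T-siCDX1 and 10.41 in LS174T-siVec, a difference of -0.19. On the array labelled HCT116-CDX1 it read 10.26, against 10.70 in HCT116-Vec, a difference of -0.44 or 1.36-fold. Neither reached 2-fold, and 10.7% of all measured genes of the HCT116 pair and 18.7% of those of the LS174T pair were as low or lower. MDM2 has 10 probe sets on the array, of which 9 were measured. In LS174T all 9 lay below 0, from -0.40 to -0.01. In HCT116 they were divided, 6 below and 3 above 0, from -0.56 to 0.28, and the mean over all 10 was -0.09. The probe sets of MDM2 thus pointed 1 way in LS174T and both ways in HCT116.

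BAX, the pore-forming executioner of mitochondrial apoptosis, was the 1 member of 8 that fell within a pair, where 1.89% of all measured genes changed. Its level was 7.60 on the array labelled HCT116-CDX1 and 8.60 in HCT116-Vec, a difference of -1.01 or 2.01-fold, which only just passes the 2-fold mark. Of the 16914 genes measured in that pair, 0.940% were as low or lower. The second BAX probe set read 7.14 against 7.97, a difference of -0.83, so both lay below 0 and 1 of them reached 2-fold. In LS174T the difference was much smaller, with 7.99 in LS174T-siCDX1 and 8.29 in LS174T-siVec, or -0.30, and -0.12 in the second probe set. The lowest BAX level of the 4 arrays was thus the one labelled HCT116-CDX1, and the highest was HCT116-Vec.

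The death receptor FAS was lower in both modified lines by similar amounts. It read 9.55 in LS174T-siCDX1 and 10.03 in LS174T-siVec, a difference of -0.48 or 1.40-fold. It read 8.97 on the array labelled HCT116-CDX1 and 9.41 in HCT116-Vec, a difference of -0.43 or 1.35-fold. On this probe set both LS174T arrays were brighter than either HCT116 array, which did not hold for all the others. Of its 5 probe sets, 4 lay below 0 in each pair, from -0.63 to -0.03 in LS174T and from -0.79 to -0.43 in HCT116. The fifth, the dimmest at 6.42 to 6.72, was at 0.15 in LS174T and 0.07 in HCT116. It is the single FAS probe set whose name does not mark it as shared between transcripts, so the direction of FAS rests on the 4 others.

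TNFRSF10B, the other death receptor of the set, went the opposite way to FAS in HCT116. Its level was 11.82 on the array labelled HCT116-CDX1 and 11.29 in HCT116-Vec, a difference of 0.53 or 1.44-fold, and 4.32% of measured genes were as high or higher. All 3 probe sets measured there lay above 0, at 0.53, 0.71 and 0.76. In LS174T-siCDX1 it read 10.38, against 10.64 in LS174T-siVec, a difference of -0.27, and 3 of its 4 probe sets lay below 0. TNFRSF10B was thus higher where CDX1 was higher by label in both lines, without reaching 2-fold in either. Of the other TRAIL receptor genes in HCT116, the decoy receptor TNFRSF10D differed by 0.73, with both of its probe sets above 0, the death receptor TNFRSF10A by -0.40 and the decoy TNFRSF10C by -0.05.

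**Figure D1:**
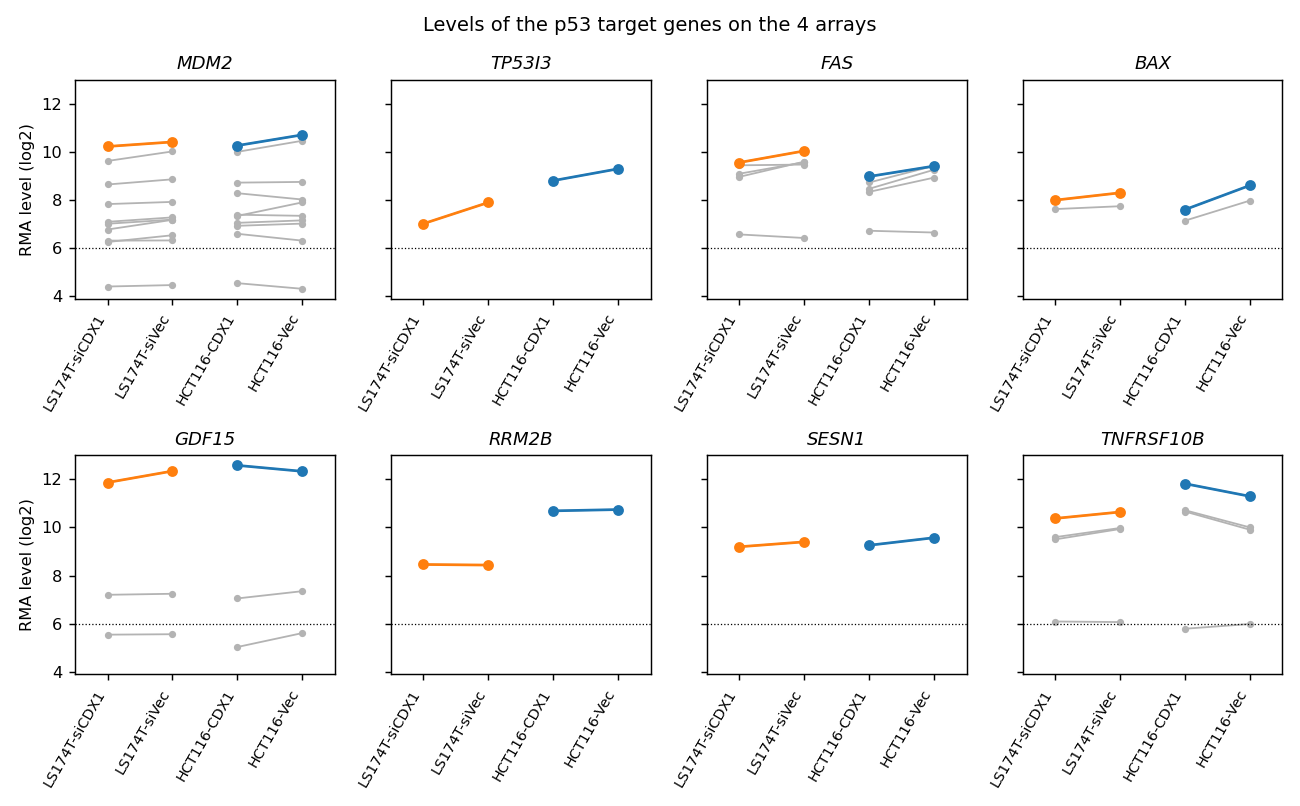
RMA level (log2) of the 8 p53 target genes on the 4 arrays, 1 array per point. Coloured lines join the arrays of a pair for the probe set that reads the gene (orange LS174T, blue HCT116), grey lines show the other probe sets, and the dotted line is the level of 6 for a measured gene. BAX is 7.60 on the array labelled HCT116-CDX1 against 8.60 in HCT116-Vec, and RRM2B is separated by cell line with almost no difference within a pair.

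TP53I3, also known as PIG3, had the largest difference of the set within LS174T. Its single probe set read 7.01 in LS174T-siCDX1 and 7.89 in LS174T-siVec, a difference of -0.88 or 1.84-fold, and 1.59% of the 16896 genes measured in that pair were as low or lower. In HCT116 it read 8.80 on the array labelled HCT116-CDX1 and 9.29 in HCT116-Vec, a difference of -0.49 or 1.40-fold. Both modified arrays lay below their vector arrays, and both LS174T arrays below both HCT116 arrays.

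GDF15, the stress cytokine, was read differently by its probe sets. The brightest gave 11.87 in LS174T-siCDX1 and 12.34 in LS174T-siVec, a difference of -0.48. The same probe set gave 12.58 on the array labelled HCT116-CDX1 and 12.33 in HCT116-Vec, a difference of 0.25. A second one, at 7.05 to 7.35, differed by -0.04 in LS174T and by -0.30 in HCT116, and the third lay under 6 on all 4 arrays. The direction of GDF15 in HCT116 therefore depends on the probe set. The mean over the 3 was -0.21, but it includes the third, which was not measured and differed by -0.58.

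SESN1, the sestrin, has 1 probe set and showed small differences. It read 9.20 in LS174T-siCDX1 and 9.40 in LS174T-siVec, a difference of -0.20. It read 9.26 on the array labelled HCT116-CDX1 and 9.57 in HCT116-Vec, a difference of -0.31, which is within the size of the largest spike-in difference of that pair. SESN2, a related sestrin and also a p53 target, differed by 0.73 in HCT116 with its second probe set at 1.17, and by -0.04 in LS174T. The 2 sestrin genes thus had opposite signs in HCT116.

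RRM2B, the ribonucleotide reductase subunit, differed within neither pair beyond the scatter of the spike-ins. Its single probe set read 8.46 in LS174T-siCDX1 and 8.44 in LS174T-siVec, a difference of 0.02. It read 10.69 on the array labelled HCT116-CDX1 and 10.74 in HCT116-Vec, a difference of -0.05. The large gap lay between the lines, as described below. The other reductase subunits differed little too, RRM2 by -0.09 in LS174T and -0.20 in HCT116, and the large subunit RRM1 by 0.26 and -0.29.

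**Figure D2:**
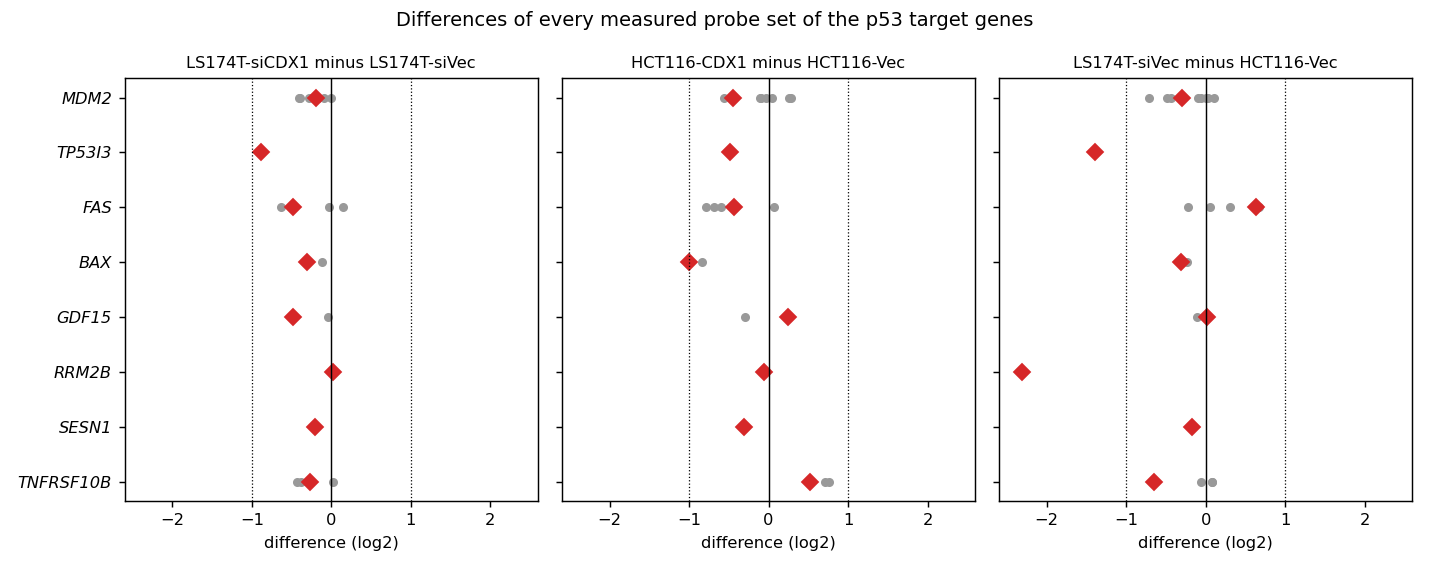
Differences on the log2 scale for every measured probe set of the 8 genes, in panels for LS174T-siCDX1 minus LS174T-siVec, the array labelled HCT116-CDX1 minus HCT116-Vec, and LS174T-siVec minus HCT116-Vec. Red diamonds are the probe set that reads the gene, grey points the others, and dotted lines mark 2-fold. BAX at -1.01 is the diamond that reaches the mark within a pair, and TP53I3 at -1.40 and RRM2B at -2.31 pass it between the vector arrays.

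As a set, the 8 genes lay mostly below 0 in both modified lines, nearly all by less than 2-fold. This rests largely on probe sets whose names (_x_at, _s_at) mark them as matching more than 1 transcript. Without them 4 genes were left (MDM2, FAS, RRM2B and TNFRSF10B), with medians of -0.074 in LS174T and 0.010 in HCT116. In LS174T-siCDX1 against LS174T-siVec 0 of the 8 changed, beside 1.85% of all 16896 measured genes. Of the 8, 7 lay below 0, beside 51.2% of all genes, and the median was -0.29 beside -0.01 over all genes. Over probe sets, 22 of the 25 measured lay below 0 and 0 changed, beside 52.3% and 1.66% of all probe sets of 1 gene. The genes below 0 were all but RRM2B. In the deposited values each of the 7 differed by more than the 0.170 of the spike-ins, which carry no scatter of culture. This depends on the processing: quantile normalization brought MDM2 to -0.11 and SESN1 to -0.16. Removing a loess on the mean level brought MDM2 to -0.13. Other probe sets of BAX at -0.12, FAS at -0.03 and GDF15 at -0.04 were also within that size.

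On the array labelled HCT116-CDX1 against HCT116-Vec 1 of the 8 changed, BAX, beside 1.89% of 16914 measured genes. Of the 8, 6 lay below 0, beside 51.0% of all genes, and the median was -0.37 beside -0.01 over all genes. Over probe sets, 16 of the 24 measured lay below 0 and 1 changed, beside 49.3% and 1.79%. GDF15 and TNFRSF10B were the genes above 0. The differences of GDF15, RRM2B and SESN1 were within the 0.349 of the spike-ins. The count of 1 changed gene is too small to set against the background share.

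The 2 pairs share no array, so their signs can be set side by side. MDM2, TP53I3, FAS, BAX and SESN1, 5 of the 8, lay below 0 in both pairs, beside 28.0% of the 16530 genes measured in both. 0 lay above 0 in both, and GDF15, RRM2B and TNFRSF10B had opposite signs. Since CDX1 was lowered in 1 line and introduced in the other by label, a gene lower in both modified lines does not follow the CDX1 label. Probe sets of 1 gene share its RNA and the genes of this set share a regulator, so these counts are not independent readings. No single gene or count here has a replicate check.

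The vector arrays were compared to see how these genes differ between the control arrays of the lines. By title the vector (siVec or Vec) differs together with the line, so the 2 cannot be told apart. RRM2B fell to 8.44 in LS174T-siVec, against 10.74 in HCT116-Vec, a difference of -2.31 or 4.95-fold. TP53I3 fell to 7.89 in LS174T-siVec, against 9.29 in HCT116-Vec, a difference of -1.40 or 2.64-fold. Each rests on 1 probe set. So 2 of the 8 changed, beside 13.4% of 17043 measured genes, as these 2 arrays differ widely. Of the 25 measured probe sets 2 changed, beside 13.2% of all, and 15 lay below 0, beside 47.2% of all.

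The other 6 genes differed between the vector arrays by less than 2-fold. FAS was higher in LS174T-siVec, by 0.63, with its probe sets between -0.23 and 0.66. TNFRSF10B differed by -0.65 in its brightest probe set, while its others lay between -0.06 and 0.08. BAX at -0.31, MDM2 at -0.30 and SESN1 at -0.17 were a little lower in LS174T-siVec, and GDF15 was level at 0.01. The median of the 8 was -0.30 beside 0.01 over all genes, and 6 lay below 0, beside 49.2% of all genes. This comparison uses the same vector arrays as the pairs above, so its differences are not independent of theirs.

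Further p53 targets were described from a list of 35 genes, 32 of them measured. In LS174T-siCDX1 2 of the 32 fell and 1 rose, beside 1.85% of all genes changed. Of the 32, 22 lay below 0, beside 51.2% of all genes, and the median was -0.17. CDKN1A, which encodes the cyclin-dependent kinase inhibitor p21 and is the best known target of p53 in growth arrest, fell to 10.68 in LS174T-siCDX1, against 11.91 in LS174T-siVec, or 2.33-fold. The interferon- and p53-induced gene TRIM22 fell to 5.80, against 7.80 in LS174T-siVec, 3.99-fold as read and at least 3.48-fold against a level of 6. CYFIP2 rose to 9.73 in LS174T-siCDX1, against 7.83 in LS174T-siVec, a difference of 1.89, with 0.90 in its second probe set. The 3 that changed thus moved in both directions.

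In HCT116 1 of the 32 fell and 0 rose, beside 1.89% of all genes changed. Of the 32, 23 lay below 0, beside 51.0% of all genes, and the median was -0.25. The member that fell was PLK2, a polo-like kinase, at 9.47 on the array labelled HCT116-CDX1 and 11.19 in HCT116-Vec, or 3.30-fold. CDKN1A read 12.11 on the array labelled HCT116-CDX1 and 12.62 in HCT116-Vec, a difference of -0.51. As with the genes described first, most of this list lay below 0 by less than 2-fold in both pairs. This list too was drawn up with earlier results of these arrays known, so it is no independent evidence of a direction.

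Between the vector arrays 7 of the 32 fell and 1 rose, beside 13.4% of all genes changed. PMAIP1, which encodes the BH3-only protein NOXA, had the largest fall, to 8.76 in LS174T-siVec, against 12.28 in HCT116-Vec, or 11.5-fold, and its second probe set was at -4.06. PLK2 at -3.06, CYFIP2 at -2.51, KITLG, the ligand of the receptor KIT, at -2.48 and TNFRSF10D at -1.57 also fell, and TRIM22 rose by 1.60. CDKN1A differed by -0.72. The median of the list was -0.16, and 24 of the 32 differed by less than 2-fold.

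Of 15 measured regulators of p53, 0 changed in each pair, beside 1.85% of all genes in LS174T and 1.89% in HCT116. A count of 0 is near those shares. The medians were 0.09 in LS174T and 0.03 in HCT116. MDM4, the relative of MDM2 that masks the activation domain of p53, differed by 0.19 in LS174T, by 0.23 in HCT116 and by -0.65 between the vector arrays. Between the vector arrays 1 of 15 fell, beside 13.4% of all genes changed. This was CDKN2A, which encodes p16 and the MDM2 inhibitor p14ARF, at 7.08 in LS174T-siVec and 9.55 in HCT116-Vec, or 5.53-fold, although its probe sets ranged from -2.47 to -0.19.

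Genes whose proteins act beside the members, such as ligands, caspases and BCL2 relatives, changed in 0 of 21 cases in LS174T and 0 of 20 in HCT116. Over all genes 1.85% and 1.89% changed, so counts of 0 are near those shares. The medians of these partner genes were -0.13 and -0.19. In HCT116 the genes that work with BAX and FAS included BID, which links death receptors to BAX, at -0.77, the caspase-8 inhibitor CFLAR at -0.71, the BAX relative BAK1 at -0.48, CASP8 at -0.47 and the anti-apoptotic MCL1 at 0.50. They were singled out after their values were seen. The probe sets of BID ran from -0.77 to 0.03, those of CFLAR from -0.81 to 0.43 and those of MCL1 from -0.04 to 0.95, so the sign of these 3 depends on the probe set. FASLG, the ligand of FAS, stood at 5.92 to 6.13 on the 4 arrays, near the level of 6. Between the vector arrays 1 of 22 measured partner genes rose and 2 fell. This was 13.6% of them, near the 13.4% of all genes changed there. TNFSF10, the TRAIL ligand of TNFRSF10B, rose to 7.75 in LS174T-siVec, against 5.66 in HCT116-Vec, at least 3.36-fold. BID fell by 1.48 on the log2 scale. SESN3 fell by 1.78 as read, to a level under 6, and at least 1.81-fold against 6.

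Cell cycle genes that p53 is known to lower through p21 and the DREAM complex were measured in all 18 cases. In LS174T-siCDX1, where CDKN1A was at -1.22, 17 of 18 lay above 0 and 1 below, beside 51.2% of all genes below 0. The median was 0.21, and 0 changed, beside 1.85% of all genes. On the array labelled HCT116-CDX1, where CDKN1A was also below 0 at -0.51, 16 of 18 lay below 0, beside 51.0% of all genes. The median was -0.53. CDC20 at -1.12, AURKA at -1.22 and BUB1 at -1.16 fell, beside 1.89% of all genes changed. The other probe sets of AURKA and BUB1 were smaller in size there, down to -0.27 and -0.25. Between the vector arrays CDC20, MKI67, BUB1 and KIF23 fell, at -1.18, -1.31, -1.08 and -1.39, among 18 with a median of -0.49. Over all genes 13.4% changed there. Whether the rate of division had a part in the levels of the p53 targets was not tested.

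Genes of the ATF4 response to amino acid shortage moved strongly in HCT116, where TNFRSF10B and SESN2 were higher. This is given because DDIT3 (CHOP), a factor of that response, is known to act on the TNFRSF10B gene, and SESN2 and GDF15 are known ATF4 targets as well. Of 13 measured genes 7 rose, 0 fell and all 13 lay above 0 on the array labelled HCT116-CDX1, with a median of 1.03. Of all genes measured in that pair 1.89% changed and 51.0% lay below 0. DDIT3 read 9.78 on the array labelled HCT116-CDX1 and 8.75 in HCT116-Vec, a rise of 1.03. CHAC1 rose by 2.12, SLC7A11 by 2.06, ASNS by 1.61, DDIT4 by 1.32, PHGDH by 1.25 and TRIB3 by 1.13. In LS174T 0 of 13 changed, beside 1.85% of all genes, and the median was -0.05, with DDIT3 at -0.18. The part of this response in the levels of TNFRSF10B and SESN2 was not tested. Like the cell cycle list, the ATF4 list was drawn up with earlier results of these arrays known. The counts of both lists are therefore no independent evidence of a direction.

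Between the vector arrays the same ATF4 genes gave 3 rises and 1 fall among 13, beside 13.4% of all genes changed. Their median was 0.42. CHAC1 rose by 1.64, SLC7A11 by 1.63 and TRIB3 by 1.23, while ATF3 fell by 2.22. DDIT3 differed by -0.24 there, and TNFRSF10B by -0.65. Markers of epithelium moved as well: KRT8 and KRT19 fell in LS174T-siCDX1, by 1.49 and 1.69, the second with another probe set at 0.19, and between the vector arrays VIL1 and CDX2 rose by 3.87 and 1.97 and CDH1 fell by 1.79. Of 9 measured markers of other cell types, read from their brightest probe sets, 0 changed in any of the 3 comparisons. Over all genes 1.85% changed in LS174T, 1.89% in HCT116 and 13.4% between the vector arrays. Another probe set of COL1A1 was at -4.98 between the vector arrays, where the brightest differed by -0.13.

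**Figure D3:**
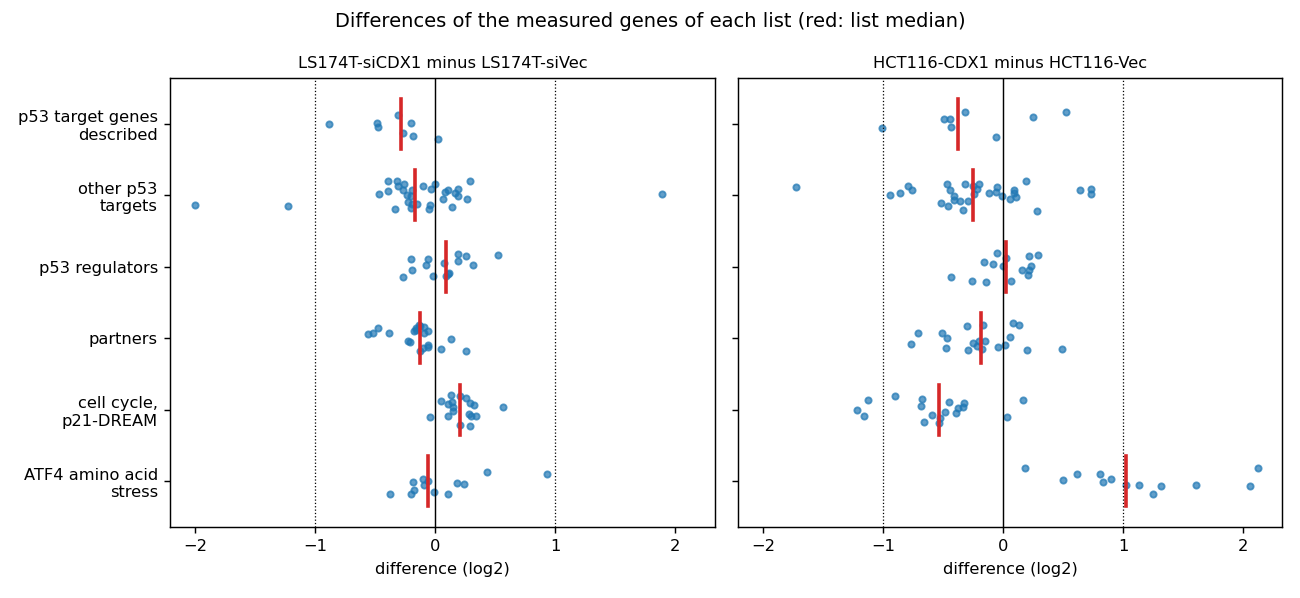
Differences on the log2 scale of the measured genes of 6 lists, for LS174T-siCDX1 minus LS174T-siVec and for the array labelled HCT116-CDX1 minus HCT116-Vec. Points are genes, with a random vertical offset, red bars the list medians and dotted lines 2-fold. The 8 p53 target genes have medians of -0.29 and -0.37, the cell cycle list lies at 0.21 and -0.53, and the ATF4 list at -0.05 and 1.03.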

How the data were processed

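The 4 arrays, 1 per modified cell line, were grouped by their sample titles. Per the labels' protocols, cRNA was made with an Enzo kit from 2 µg of RNeasy-extracted RNA. The authors used RMA, per the submitters' processing notes, and the deposited values are log2 expression of 54675 probe sets, from 3.20 to 14.6, used here as deposited. The RMA version and the arrays normalised together are not given in the sources used here.

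Gene names came from the platform annotation (41097 with 1 gene, 1801 with several, 11777 with none listed), and symbols were checked against RefSeq (41043 matched, 0 changed). Genes were read, called and given a floor of 6 as the report states, and a gene counts as measured where the brighter array reaches the floor. The rule was tested on simulated data. The members and lists were chosen with earlier results of these data known. Named were all members, genes of the fixed lists that changed within a pair, the 6 largest changes per list between the vector arrays, and MDM4, CDKN1A, CDX1 and KRT20; related receptor, sestrin, reductase and apoptosis genes within the lists were named after their values were seen. Alternatives were other floors, normalizations, probe set rules and thresholds. Python 3.11.15, numpy 2.4.6, pandas 2.3.3 and statsmodels 0.14.6 were used.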

Additional observations from a re-analysis of the deposited data

Results flagged for a closer look

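Some genes gave opposite signs in the 2 lines when the array with more CDX1 by label was set against the one with less (the array labelled HCT116-CDX1 minus HCT116-Vec, and LS174T-siVec minus LS174T-siCDX1). With 1 array per group this difference between the lines was not tested. The HCT116 difference minus the LS174T difference was -0.63 for MDM2, -1.37 for TP53I3, -0.91 for FAS, -1.31 for BAX and -0.52 for SESN1. It was -1.73 for CDKN1A, at -0.51 in HCT116 and 1.22 in LS174T. The 8 members with a reading and CDKN1A were examined in this way, and the genes of the other lists were not.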

How the results depend on the processing

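No paired analysis was possible because each group has 1 array. With other floors, quantile normalization, equal medians, the loess or levels below 6 set to 6, all counts of changed members and other p53 targets and all medians of the 3 comparisons stayed within 1.5 times or within the spike-in SD. When a gene's probe sets were averaged, 0 members changed in HCT116, and the medians were -0.21 in LS174T and -0.18 between the vector arrays. Without probe sets marked as shared (names ending in _x_at or _s_at), 4 members and 24 other targets were left. The members left were MDM2, FAS, RRM2B and TNFRSF10B. BAX, the member called in HCT116, has only such probe sets and was no longer read. A count of 0 members in HCT116 was therefore fixed beforehand, and the counts of other targets also cover fewer genes. Then 0 members changed in HCT116 with a median of 0.010, the LS174T median was -0.074 with 0 other targets changed, and between the vector arrays 1 member and 5 other targets changed with a median of -0.68. At 1.5-fold, 8 other targets changed in HCT116, 1 member in LS174T, and 4 members and 13 other targets between the vector arrays. At 3-fold, 0 members changed in HCT116, and 1 member and 5 other targets between the vector arrays. Of 180 differences of single members under these settings, 15 moved by more than the spike-in SD and 0 called ones reversed. FAS, below 0 in both pairs, read 0.07 in HCT116 and 0.15 in LS174T without shared probe sets, and 0.63 between the vector arrays became -0.23. The causes were not tested. Levels near 6 were taken as no clear signal over background, which limits the dim probe sets of MDM2, FAS and GDF15.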
